A study of Rattus norvegicus with 8 samples.

Results

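A set of 10 genes that microglia and other macrophages share, most of them coding for surface receptors, adaptors or proteins linked to them, was measured in glial cells sorted from the rat brain. The members are Csf1r, Tyrobp, Aif1, Fcer1g, Laptm5, Ptprc, Ly86, Trem2, Cd14 and Igsf6, and were picked by name as genes of the whole myeloid lineage. Earlier results of these data were known when they were picked. A probe set was taken when its only gene symbol in the platform's annotation was one of these names, which gave 14 probe sets of 31042 tested, for 10 genes of 14217; 6 genes had 1 probe set and 4 had 2. Whole brains of postnatal day 7 rats were the source, and flow cytometry separated cells positive for A2B5 alone, a ganglioside epitope of glial progenitors, from cells positive for GalC alone. GalC is galactocerebroside, a major myelin lipid. The labels call the A2B5+ cells oligodendrocyte progenitors and the GalC+ cells oligodendrocytes, and name no strain, treatment or sex. Each population had 4 biological replicates, each a litter of 10 pups pooled, and each was measured on 1 Affymetrix array. Each value is a linear ratio, the signal divided by the median of that probe set on the 8 arrays, so the values show differences between arrays and no level: no member can be called more abundant than another. In such bulk samples, fewer cells of a type and less RNA per cell cannot be told apart.

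Microglia are the macrophages of the brain tissue itself, and other macrophages live at its borders, in the meninges and around vessels. Survival of these cells depends on Csf1r, the receptor for the growth factors Csf1 and Il34. Many of their receptors have no signalling tail of their own and pair with the small membrane adaptors Tyrobp (also called DAP12) or Fcer1g, whose tyrosine motif, the ITAM, recruits the kinase Syk. Cd14 hands bacterial endotoxin to the receptor pair Tlr4 and Ly96, and Ly86 is the partner of the related receptor Cd180. None of the 10 genes is a marker of the oligodendrocyte lineage.

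In the myeloid lineage many promoters carry purine-rich sites for the Ets factor Spi1 (PU.1), whose core can be written GAGGAA. RefSeq promoters (GRCr8, 250 bases before to 50 after the start site) were found for 6 of the 10 members, and 4 are printed: that of Igsf6, which differed most, and those of Laptm5, Ptprc and Trem2, each read from 2 probe sets and with smaller differences. Capitals mark GAGGAA, or its reverse complement TTCCTC where the core lies on the other strand. Each sequence reads 5′ to 3′ along the gene. Igsf6 lies at chr1:185051907-185052206 (minus strand), Laptm5 at chr5:148371630-148371929 (plus strand), Ptprc at chr13:52259697-52259996 (minus strand) and Trem2 at chr9:20151730-20152029 (minus strand).
Igsf6: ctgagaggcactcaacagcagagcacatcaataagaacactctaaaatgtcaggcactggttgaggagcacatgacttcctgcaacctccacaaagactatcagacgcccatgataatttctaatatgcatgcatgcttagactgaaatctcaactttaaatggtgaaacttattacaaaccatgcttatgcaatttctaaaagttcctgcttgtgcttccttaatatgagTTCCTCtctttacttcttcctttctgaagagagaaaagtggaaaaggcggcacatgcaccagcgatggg
Laptm5: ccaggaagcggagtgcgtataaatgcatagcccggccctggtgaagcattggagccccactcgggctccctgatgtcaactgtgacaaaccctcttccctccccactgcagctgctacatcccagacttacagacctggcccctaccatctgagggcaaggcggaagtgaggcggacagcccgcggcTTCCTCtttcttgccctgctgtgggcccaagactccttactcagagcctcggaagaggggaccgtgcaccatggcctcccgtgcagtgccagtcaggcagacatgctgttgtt
Ptprc: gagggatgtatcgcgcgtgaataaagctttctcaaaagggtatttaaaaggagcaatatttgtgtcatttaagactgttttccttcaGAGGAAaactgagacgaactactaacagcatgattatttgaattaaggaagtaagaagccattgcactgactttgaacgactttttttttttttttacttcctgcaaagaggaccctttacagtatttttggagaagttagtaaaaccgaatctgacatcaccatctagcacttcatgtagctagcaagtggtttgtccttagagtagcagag
Trem2: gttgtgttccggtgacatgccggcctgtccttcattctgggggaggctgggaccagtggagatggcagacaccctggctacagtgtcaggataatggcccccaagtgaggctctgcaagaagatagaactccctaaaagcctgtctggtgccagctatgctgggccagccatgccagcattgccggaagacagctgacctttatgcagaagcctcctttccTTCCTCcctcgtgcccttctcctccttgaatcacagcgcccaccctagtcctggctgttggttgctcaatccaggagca
The letters GAGGAA, on either strand, were in all 6 member promoters in the table, these 4 with 1 match each and those of Csf1r and Cd14 with 2 each, and in 27.6% of the 33469 promoters of the same length. A match is a description of the letters and not a measured binding site.

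The identity of the 2 populations was checked with marker lists. Over all genes 18.2% were higher in GalC+ and 17.5% lower (limma, adjusted p under 0.05). All 9 measured oligodendrocyte markers were higher in GalC+ (median log2 fold change 4.01), 8 of 9 neuron markers were lower (median -1.96), all 5 mural cell markers were higher (median 1.21), and no astrocyte or endothelial marker of 5 each passed in limma (1 and 0 with an unadjusted p under 0.05). The largest differences were those of Mobp, a myelin protein (log2 fold change 5.26), and Stmn2, a neuronal tubulin-binding protein (-2.67). Of 6 measured progenitor markers, which bear on the A2B5+ label, 2 were lower in GalC+, the receptor Pdgfra (-1.26) and Nxph1 (-2.35), and 4 did not pass: Cspg4 (0.01), Olig2 (0.04), Lhfpl3 (-0.09) and Ptprz1 (-0.24), for a median of -0.17; all but Nxph1 are named after their values were seen. The median ratio per array lay between 0.979 and 1.03. Among the A2B5+ arrays, replicate 3 stood apart for myeloid genes. It was the highest A2B5+ array in 13 of 14 member probe sets, against 34.7% of all probe sets. The same array was highest in 7 of 8 microglia-enriched genes, against 32.6% of all genes. The members' results are therefore also given without it. The array was picked from these same values. Larger differences and less overlap without it follow from that choice, and are no added support. GalC+ replicate 3 was the highest GalC+ array in 9 of 14 member probe sets, against 23.6% of all probe sets. That array was kept in those fits, so only the A2B5+ side was changed.

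Of the 14 member probe sets, 13 were higher in GalC+ than in A2B5+ cells, none was lower and 1, of Aif1, did not pass (limma, adjusted p under 0.05 over all probe sets tested). Of all probe sets, 13.5% were higher by the same rule, and 26.8% differed in either direction. The median log2 fold change of the 14 was 0.77, against 0.04 over all probe sets. The 4 A2B5+ and 4 GalC+ arrays did not overlap in 9 of the 14, against 15.2% of all probe sets that were higher without overlap. Without A2B5+ replicate 3, left out for its high member values, 13 were again higher (14% of all probe sets) with a median of 0.97. Among the remaining arrays 13 did not overlap (22.4%). Of the 13 probe sets that were higher, 11 differed by 1.45- to 2.07-fold, and those of Cd14 and Igsf6 by more.

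Csf1r, the growth factor receptor, had ratios of 0.627, 0.497, 0.947 and 0.553 in A2B5+ replicates 1 to 4 and of 1.187, 1.189, 1.239 and 1.053 in GalC+. Every GalC+ array was above every A2B5+ array, and A2B5+ replicate 3 came closest. Fold differences between the populations are back-transformed from differences of mean log2 ratios. Csf1r was higher in GalC+ by 1.83-fold (log2 fold change 0.87 ± 0.17 SE, n = 4 and 4, adjusted p = 0.00472), or by 2.09-fold without A2B5+ replicate 3. Its ligands were both higher in GalC+. Il34 had ratios of 0.498 to 0.838 in A2B5+ and 1.162 to 2.074 in GalC+, a log2 fold change of 1.08 (SE 0.21, adjusted p = 0.00299). Csf1 had a log2 fold change of 0.57 ± 0.14 (adjusted p = 0.0115) in the probe set with the largest variance, 1 of 4 and the only one that passed; the mean of the 4 was 0.35 (adjusted p = 0.0353).

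**Figure D1:**
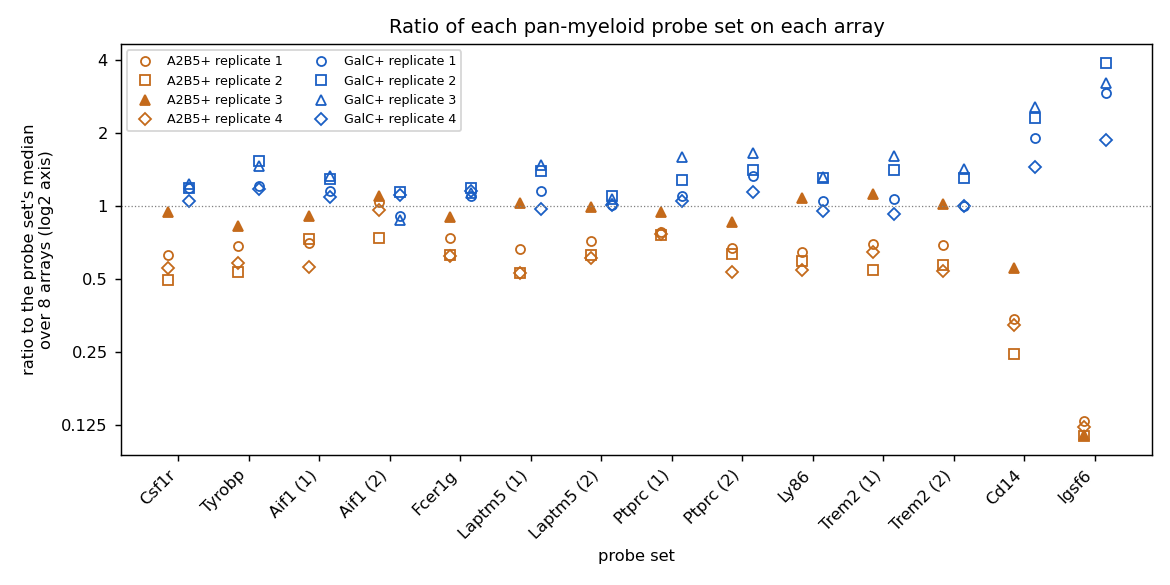
Ratio of each member probe set to its median over the 8 arrays (log2 axis), with 4 A2B5+ arrays in orange and 4 GalC+ arrays in blue; filled triangles are A2B5+ replicate 3, and (1) and (2) number the probe sets of a gene in the order of their names. A2B5+ replicate 3 was the highest A2B5+ array in 13 of 14, and Cd14 and Igsf6 showed the widest separation of the populations.

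Tyrobp, the adaptor of Trem2, had ratios of 0.684, 0.535, 0.828 and 0.583 in A2B5+ and of 1.213, 1.536, 1.462 and 1.172 in GalC+, with no overlap. The difference was 2.06-fold (log2 fold change 1.04 ± 0.15 SE, adjusted p = 7.17e-04), or 2.24-fold without A2B5+ replicate 3. Fcer1g, the adaptor of several Fc receptors, had ratios of 0.740, 0.626, 0.901 and 0.621 against 1.099, 1.191, 1.133 and 1.152. The GalC+ arrays lay close together, with the highest 1.08 times the lowest, whereas the A2B5+ arrays spanned 1.45-fold. The difference was 1.60-fold (0.68 ± 0.12, adjusted p = 0.00217), or 1.73-fold without A2B5+ replicate 3.

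Trem2, a lipid-sensing receptor that signals through Tyrobp, was read from 2 probe sets with nearly the same response. The probe set 1382513_at had ratios of 0.697, 0.543, 1.121 and 0.645 in A2B5+ and of 1.073, 1.408, 1.613 and 0.927 in GalC+. A2B5+ replicate 3 was above GalC+ replicates 1 and 4, so the populations overlapped. The log2 fold change was 0.76 ± 0.23 SE (adjusted p = 0.0363), and 0.97 ± 0.19 (adjusted p = 0.00616) without A2B5+ replicate 3. The probe set 1392759_at showed 0.77 ± 0.20 (adjusted p = 0.0182), and 0.97 ± 0.15 (adjusted p = 0.00241) without that array. Both calls depended on single arrays: the first was lost without A2B5+ replicate 1, 2 or 4 or GalC+ replicate 2 or 3 (adjusted p of 0.0801, 0.102, 0.0932, 0.0927 and 0.091), and the second without A2B5+ replicate 2 or 4 or GalC+ replicate 2 (0.0561, 0.0536 and 0.0508).

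Other receptors that pair with Tyrobp or Fcer1g were measured for 4 of 17 listed. Of these 4, 1 was higher, 1 was lower and 2 did not pass in limma, with a median log2 fold change of 0.15. Over all genes 18.2% were higher and 17.5% lower. The 2 that did not pass were Fcgr3a (0.11, adjusted p = 0.647) and Klrk1 (0.20, adjusted p = 0.0741), named after their values were seen. Fcgr1a, the high-affinity receptor for IgG, differed by 3.76-fold (log2 fold change 1.91 ± 0.22 SE, adjusted p = 2.20e-04), with ratios of 0.334 to 0.699 in A2B5+ and 1.301 to 2.066 in GalC+. Fcer1a, the IgE-binding chain that pairs with Fcer1g in mast cells, was lower (-0.80 ± 0.25, adjusted p = 0.0341), a call lost without A2B5+ replicate 1, 2 or 4 or GalC+ replicate 2 or 3 (adjusted p of 0.0663 to 0.0882), with quantile normalization (0.0622) and with the spread estimated for its probe set alone (0.105). Mast cell markers were lower in GalC+ in 7 of 8 cases and higher in none (median -1.13), with array medians of 1.092 to 2.4635 in A2B5+ and 0.6495 to 0.8675 in GalC+; their part in the Fcer1g result was not tested. The lowest of them was Mcpt1l1, a mast cell protease (-2.40 ± 0.52, adjusted p = 0.00535).

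A list of ITAM signalling genes, mostly downstream of the adaptors, also held the adaptor Hcst. Of 17 measured, 12 were higher in GalC+ and none lower, with a median log2 fold change of 0.78. Over all genes 18.2% were higher, 17.5% were lower and the median was 0.04. Without A2B5+ replicate 3, 15 of the 17 were higher (18.4% of all genes). Hcst, a small membrane adaptor like Tyrobp that couples to PI3 kinase, had ratios of 0.364 to 0.678 in A2B5+ and 1.322 to 1.946 in GalC+, a log2 fold change of 1.72 (SE 0.20, adjusted p = 2.17e-04). Ptpn6, the phosphatase that counters ITAM signals, was higher by 1.35 ± 0.20 (adjusted p = 7.05e-04) and the kinase Btk by 1.13 ± 0.19 (adjusted p = 0.00166). Syk, which binds the phosphorylated ITAM, rose by 0.78 ± 0.12 (adjusted p = 8.71e-04), and the phospholipase Plcg2 by 0.68 ± 0.10 (adjusted p = 8.20e-04).

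Inhibitory myeloid receptors, many of which recruit Ptpn6, were higher in 9 of 11 measured cases (18.2% of all genes) and lower in none. Their median log2 fold change was 1.21, and without A2B5+ replicate 3 all 11 were higher (18.4% of all genes). Clec4a, a lectin with an inhibitory tail, had ratios of 0.245 to 0.371 in A2B5+ and 1.629 to 2.413 in GalC+, a 7.30-fold difference (2.87 ± 0.16 SE, adjusted p = 3.15e-06). Clec12a (2.84 ± 0.21, adjusted p = 1.59e-05) and Pilra (2.40 ± 0.23, adjusted p = 7.03e-05) followed.

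Cd14 had ratios of 0.342, 0.246, 0.554 and 0.323 in A2B5+ and of 1.915, 2.317, 2.567 and 1.446 in GalC+. No array of one population came near the other: the lowest GalC+ ratio was 1.446 and the highest A2B5+ ratio 0.554. This was a 5.75-fold difference (log2 fold change 2.52 ± 0.25 SE, 95% interval 1.98 to 3.07, adjusted p = 1.04e-04), or 6.70-fold without A2B5+ replicate 3. Ly86 had ratios of 0.645, 0.593, 1.077 and 0.546 against 1.050, 1.307, 1.322 and 0.950. Here A2B5+ replicate 3 was above GalC+ replicates 1 and 4, and the populations overlapped. The difference was 1.66-fold (0.73 ± 0.20, adjusted p = 0.0244), and 1.93-fold without A2B5+ replicate 3 (0.95 ± 0.13, adjusted p = 0.00144). The call was lost without A2B5+ replicate 1, 2 or 4 or GalC+ replicate 2 or 3 (adjusted p of 0.0612 to 0.0712).

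Of 14 measured genes of the endotoxin receptor pathway, 9 were higher in GalC+ (18.2% of all genes) and none lower. The median log2 fold change was 0.55, and without A2B5+ replicate 3, 10 were higher (18.4% of all genes). Tlr4, the signalling receptor that Cd14 serves, had ratios of 0.449 to 0.676 in A2B5+ and 1.324 to 2.339 in GalC+ (1.78 ± 0.19 SE, adjusted p = 1.21e-04). Its partner Ly96 rose by 1.25 ± 0.14 (adjusted p = 1.59e-04). Tlr2, which binds bacterial lipoproteins, rose by 1.48 ± 0.22 (adjusted p = 8.17e-04). Cd180, the receptor that Ly86 accompanies, rose by 0.52 ± 0.14 (adjusted p = 0.0162), a call lost with the spread estimated for its probe set alone (0.0523).

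Igsf6, an immunoglobulin superfamily membrane protein of myeloid cells, had ratios of 0.130, 0.112, 0.113 and 0.122 in A2B5+ and of 2.925, 3.910, 3.225 and 1.870 in GalC+. The A2B5+ arrays spanned only 1.16-fold and A2B5+ replicate 3 was not raised among them, unlike in the other 9 genes; the GalC+ arrays spanned 2.09-fold, with replicate 4 lowest. This was a 24.2-fold difference (log2 fold change 4.60 ± 0.19 SE, 95% interval 4.17 to 5.02, adjusted p = 1.83e-06), or 23.8-fold without A2B5+ replicate 3, and 0.029% of probe sets had a larger log2 fold change. Its interval lay above that of Cd14, whose interval lay above those of the other 12 member probe sets. The intervals of the 11 other probe sets that passed overlapped one another. Probe sets near background show compressed folds, and the ratios do not tell which these are.

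**Figure D2:**
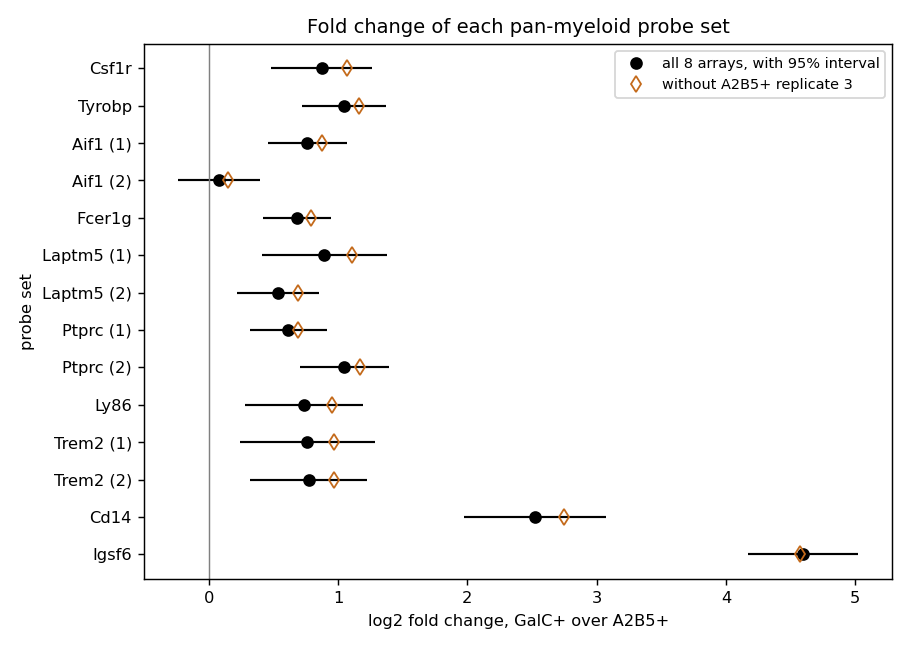
Log2 fold change of GalC+ over A2B5+ for each member probe set: points with 95% intervals from limma over 8 arrays, and open diamonds without A2B5+ replicate 3. Of 14 probe sets, 13 passed the test; Igsf6 (4.60) and Cd14 (2.52) lay apart from the others, and 1 probe set of Aif1 lay near 0.

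Ptprc, the phosphatase CD45 of all nucleated blood cells, was higher in both probe sets. The probe set 1390798_at had ratios of 0.669, 0.634, 0.857 and 0.535 in A2B5+ and of 1.337, 1.403, 1.664 and 1.143 in GalC+, with no overlap, a 2.07-fold difference (log2 fold change 1.05 ± 0.15 SE, adjusted p = 8.94e-04). The probe set 1370603_a_at had ratios of 0.784, 0.756, 0.946 and 0.770 against 1.104, 1.286, 1.588 and 1.054, again without overlap, at 1.53-fold (0.62 ± 0.13, adjusted p = 0.00738). Without A2B5+ replicate 3 these became 2.25- and 1.61-fold. GalC+ replicate 3 was the highest array in each.

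Laptm5, a lysosomal membrane protein of blood-derived cells, was also higher in both of its probe sets. The probe set 1368006_at had ratios of 0.665, 0.529, 1.031 and 0.531 in A2B5+ and of 1.151, 1.397, 1.474 and 0.969 in GalC+; A2B5+ replicate 3 was above GalC+ replicate 4. It differed by 1.86-fold (log2 fold change 0.89 ± 0.22 SE, adjusted p = 0.0124). The probe set 1383658_at had ratios of 0.609 to 0.991 against 1.009 to 1.101, which did not overlap, at 1.45-fold (0.53 ± 0.14, adjusted p = 0.0192). This second call was lost without A2B5+ replicate 2 or 4 or GalC+ replicate 2 (adjusted p of 0.0576, 0.0569 and 0.0508), and with a trended prior (0.0862). Without A2B5+ replicate 3 the 2 probe sets differed by 2.15- and 1.61-fold.

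Aif1, the actin-bundling protein Iba1 that is widely used to stain microglia, gave unlike results in its 2 probe sets. The probe set 1368558_s_at had ratios of 0.704, 0.728, 0.908 and 0.561 in A2B5+ and of 1.151, 1.296, 1.331 and 1.092 in GalC+, without overlap, at 1.70-fold (log2 fold change 0.76 ± 0.14 SE, adjusted p = 0.00271), or 1.84-fold without A2B5+ replicate 3. The probe set 1369489_at had ratios of 1.039, 0.737, 1.103 and 0.961 against 0.908, 1.141, 0.876 and 1.115. Its populations overlapped throughout, and the log2 fold change was 0.08 ± 0.14 (95% interval -0.23 to 0.39, adjusted p = 0.709), with the opposite sign, -0.042, without A2B5+ replicate 2; without A2B5+ replicate 3 it was 0.15. Aif1 is thus 1 of the 10 genes in which a probe set did not pass; in the other 9 every probe set was higher.

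A list of other leukocyte genes mixes phagocyte genes with broader ones. It was higher in 13 of 18 measured cases, against 18.2% of all genes, and lower in none. The other 5 did not pass, and the median log2 fold change was 0.82. Without A2B5+ replicate 3, 15 were higher (18.4% of all genes). Cybb, the catalytic subunit of the phagocyte oxidase, was 14.0-fold higher (3.80 ± 0.21 SE, adjusted p = 3.15e-06; 2.98 as the average of 2 probe sets), the lysosomal macrophage protein Cd68 4.87-fold (2.28 ± 0.16, adjusted p = 9.27e-06) and the oxidase subunit Ncf4 2.37-fold (1.24 ± 0.16, adjusted p = 3.63e-04). Of 9 measured transcription factors of myeloid cells, 6 were higher and none lower (18.2% and 17.5% of all genes). Their median was 0.97, and without A2B5+ replicate 3 all 9 were higher (18.4% of all genes). Cebpb (1.78 ± 0.19, adjusted p = 1.48e-04), Maf (1.78 ± 0.15, adjusted p = 3.93e-05; 1.13 as the average of 3 probe sets) and Runx1 (1.40 ± 0.18, adjusted p = 3.96e-04; 1.12 as the average of 2 probe sets) rose most.

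The members were then set beside markers of the 2 macrophage classes that share them. All 11 measured border macrophage markers were higher in GalC+ (median log2 fold change 3.08, or 8.47-fold), led by the scavenger receptor Cd163 (42.7-fold), the clotting factor subunit F13a1 (40.6-fold) and the lectin Clec10a (24.5-fold). Of 8 measured microglia-enriched genes, 1 was higher, 1 was lower and 6 did not pass, with a median of -0.19. The 10 members, read like these lists from 1 probe set per gene, had a median of 0.88 (1.85-fold). Of them 10 of 10 were higher, against 18.2% of all genes. The probe set taken was that with the largest variance, a choice that favours probe sets that differ. As the mean of its 2 probe sets Aif1 was higher by 0.42 (limma, adjusted p = 0.0132). Without A2B5+ replicate 3 the medians were 3.21, -0.05 and 1.09, with 11, 1 and 10 genes higher, against 18.4% of all genes.

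The gene of the microglia list that was higher was Olfml3 (0.59 ± 0.15 SE, adjusted p = 0.0132), a secreted protein. The lower one was Sall1, a transcription factor of microglial identity (-0.31 ± 0.10, adjusted p = 0.0333), whose call was lost without A2B5+ replicate 2 or 3 or GalC+ replicate 1 or 2 (adjusted p of 0.0859, 0.0765, 0.0771 and 0.0871), with array weights (0.0524) and with the spread estimated for its probe set alone (0.0511). The defining markers P2ry12, Tmem119 and Cx3cr1 are named here after their values were seen. The purine receptor P2ry12 had ratios of 1.365, 0.900, 1.907 and 0.974 in A2B5+ and 0.916, 1.026, 1.244 and 0.742 in GalC+ (-0.35 ± 0.24, adjusted p = 0.286), or -0.14 without A2B5+ replicate 3. Tmem119 had ratios of 1.222, 0.894, 1.950 and 1.024 against 0.720, 0.929, 0.976 and 1.132 (-0.39 ± 0.23, adjusted p = 0.217), or -0.16 without that array. The chemokine receptor Cx3cr1 had ratios of 1.127, 0.924, 1.700 and 0.806 against 0.953, 1.048, 1.047 and 0.921 (-0.14 ± 0.20, adjusted p = 0.609), and the sign turned without A2B5+ replicate 3 (0.071). A2B5+ replicate 3 was the highest of all 8 arrays for these 3 genes.

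**Figure D3:**
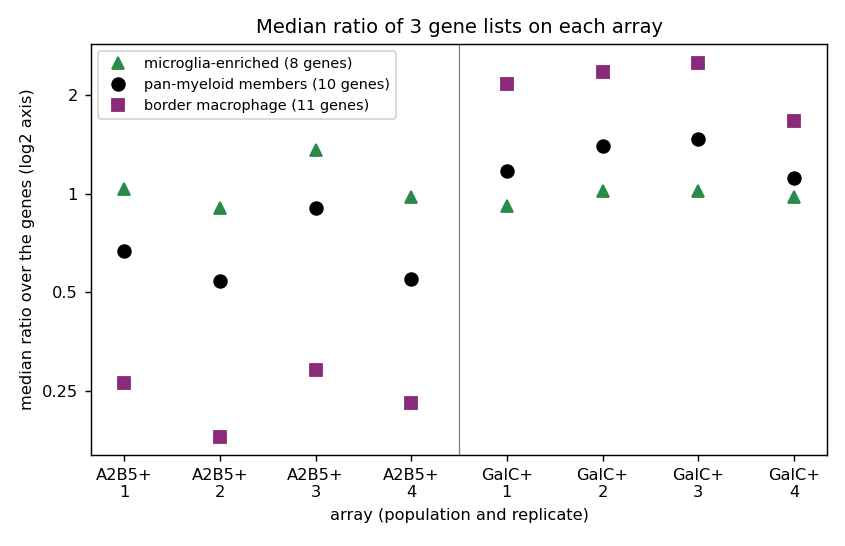
Median ratio on each array (log2 axis) over 8 microglia-enriched genes, 10 pan-myeloid members and 11 border macrophage markers, each gene read from 1 probe set. Border macrophage medians lay at 0.181 to 0.29 in A2B5+ and 1.669 to 2.513 in GalC+, member medians at 0.539 to 0.9045 and 1.1175 to 1.468, and microglia-enriched medians at 0.9035 to 1.359 and 0.9155 to 1.019.

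Array by array, the median ratio of the 10 members was 0.667, 0.539, 0.9045 and 0.5495 in A2B5+ replicates 1 to 4 and 1.169, 1.4, 1.468 and 1.1175 in GalC+. That of the border macrophage markers was 0.263, 0.181, 0.29 and 0.229 against 2.16, 2.349, 2.513 and 1.669. That of the microglia-enriched genes was 1.03, 0.9035, 1.359 and 0.9795 against 0.9155, 1.019, 1.0185 and 0.9795. A2B5+ replicate 3 was the highest A2B5+ array for all 3 medians. GalC+ replicate 4 was the lowest GalC+ array in 10 of the 14 member probe sets, against 20.4% of all probe sets, and in all 11 border macrophage markers. It was also the lowest GalC+ array in 6 of 9 oligodendrocyte markers and the highest in 8 of 9 neuron markers. Over all genes it was the lowest in 23.3% and the highest in 29.5%. The part of these shifts in the members' values was not tested.

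Markers of other blood cells were read for the same arrays. No neutrophil marker of 4 measured passed in limma (0 with an unadjusted p under 0.05), with array medians of 0.9005 to 1.004 in A2B5+ and 1.02 to 1.1395 in GalC+. Lymphocyte markers were higher in 5 of 11 cases, against 18.2% of all genes, and lower in none. Their median log2 fold change was 0.35, with array medians of 0.873 to 0.959 against 1.025 to 1.145. The kinase Lck led them (0.66 ± 0.11 SE, adjusted p = 0.00145). Mural cell markers, at 0.483 to 0.738 against 1.259 to 2.094, were higher beside the members as well, led by Tagln of smooth muscle (2.68 ± 0.23, adjusted p = 3.94e-05). The part of these cells in the members' values was not tested.

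**Figure D4:**
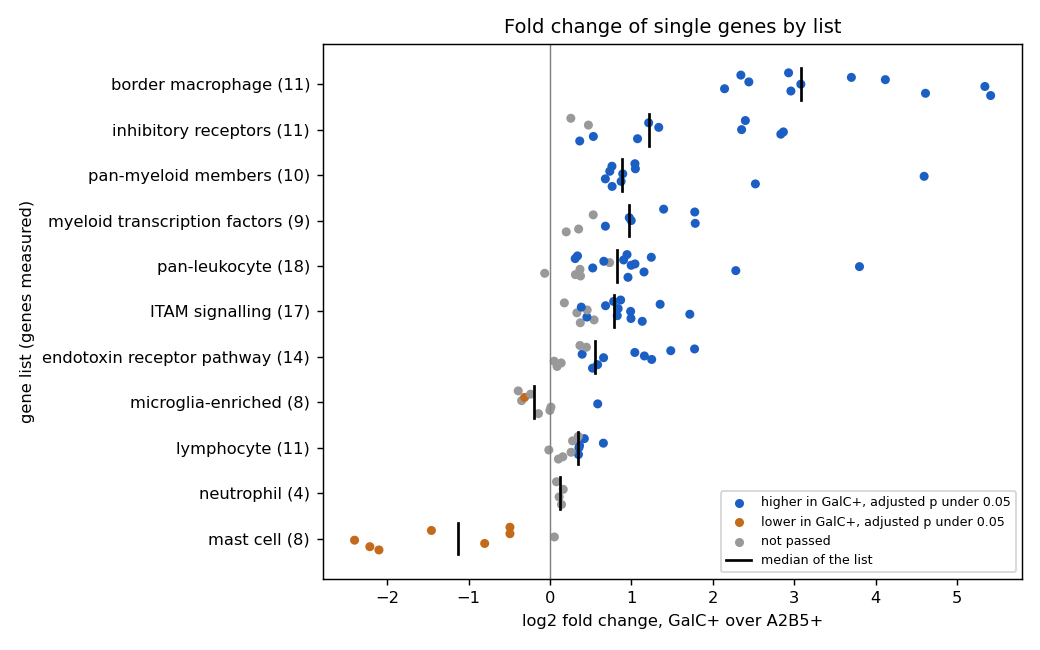
Log2 fold change of GalC+ over A2B5+ for single genes of 11 lists, 1 point per gene, coloured by the limma call at an adjusted p of 0.05, with the median of each list as a bar. The median was 3.08 for border macrophage markers, 0.88 for the 10 members and -0.19 for microglia-enriched genes.

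The genes whose pattern over the 8 arrays was most like the mean of the 10 members were found by the smallest root mean square difference of log2 ratios. The 6 nearest outside the members were Tmem37 (a difference of 0.0782), Runx1 (0.084), the complement component C1qc (0.104), Tmem63a (0.107), Arhgap9 (0.116) and the endosomal receptor Tlr7 (0.119). Among the members themselves Tyrobp (0.214) and Ptprc (0.241) were nearest to that mean, and Cd14 (0.588) and Igsf6 (1.72) farthest. That mean is drawn up by Igsf6 and Cd14: the other 8 members had log2 fold changes of 0.68 to 1.05, below the 1.32 to 1.40 of the 6 genes, which were chosen for their likeness to it.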

How the data were processed

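Total RNA of the 8 sorted samples was labelled by Affymetrix's small sample procedure and hybridised to 1 array each, per the labels' protocols. The submitters' processing notes name RMA, without a version. Deposited by the authors is a linear ratio to each probe set's median over the arrays, as seen in the values: all 31099 rows have a median of 1 within 5e-04. Ratios were log2 transformed without a pseudocount. After 57 control probe sets were left out, 31042 were tested, of which 20826 had 1 gene symbol. The 2 populations were compared in limma 3.58.1 (R 4.3.3; two-sided, p-values adjusted by Benjamini-Hochberg over the 31042 probe sets or the 14217 genes, threshold 0.05), a fit that was tested on simulated data. There it recovered 47.2% of log2 changes of 0.5, 86.4% of those of 1 and 100% of those of 2. A small change can therefore fail to pass. For lists, each gene was read from its probe set with the largest variance. All 10 members' gene IDs were found in the RefSeq table of GRCr8.

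The members and lists were chosen with earlier results of these data known. Genes named are all member probe sets, up to 3 rises and 3 falls past the threshold from each myeloid list, the partners Csf1, Il34, Spi1 (not analysed here), Syk, Plcg2, Hcst, Tlr4, Ly96 and Cd180, the largest rise or fall past the threshold of each list of another cell type, and the 6 genes most like the members. Each replicate of a population is 1 pooled litter, per the series' design text; whether same-numbered A2B5+ and GalC+ replicates share a litter is not stated. The number of arrays limits the precision, and no scan date or batch was known. The alternatives were quantile normalization, median centring, a pseudocount of 0.1, a trended and robust prior, the spread of each probe set alone, array weights, a replicate block, leaving out each array, the 50% of probe sets with the larger variance, an adjusted p under 0.01 and averaging the probe sets of each gene.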

Additional observations from a re-analysis of the deposited data

Results flagged for a closer look

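Of the 28 groups of 4 arrays examined (14 member probe sets in each population), 1 held an array far from the others, about what chance gives at 1 group in 20. It was the Ptprc probe set 1370603_a_at in A2B5+ cells, where replicate 3 had a ratio of 0.946 and the other 3 arrays lay between 0.756 and 0.784. The gap was 0.838 of the group's range, above the limit of 0.829. The 28 groups come from the same arrays and are not independent, so 1 in 20 is a rough guide. This limit judges each group alone and cannot show a smaller shift shared by many probe sets.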

How the results depend on the processing

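With an adjusted p under 0.01, 4911 probe sets, 3137 genes and 8 member probe sets passed, in place of 8313, 5079 and 13 at 0.05. With the spread estimated for each probe set alone, 8 member probe sets were higher, of 6435 that passed in either direction; the 5 lost were those of Laptm5 (adjusted p of 0.0635 and 0.069), Ly86 (0.0912) and Trem2 (0.118 and 0.0772). Leaving out 1 array gave 9 to 13 member probe sets, 6 to 9 genes with every probe set higher (9 with all arrays), 56 to 75 of the 94 genes in the myeloid and pathway lists (64), 33 to 37 of the 62 genes of other cell types (36), and 6416 to 8463 probe sets and 4071 to 5084 genes in all. The log2 fold change of 1369489_at of Aif1 ranged from -0.042 (without A2B5+ replicate 2) to 0.15 over these fits, and that of Cx3cr1 from -0.29 to 0.071 (without A2B5+ replicate 3). Csf1r, Tyrobp, Fcer1g, Cd14, Igsf6, both probe sets of Ptprc and 1368558_s_at of Aif1 kept their call in all 17 alternatives run for probe sets. Deviations of same-numbered arrays correlated at 0.401, 0.089, 0.304 and 0.172 for replicates 1 to 4. Those of differently numbered arrays correlated at -0.257 to 0.136. The numbers were not taken as pairs because a shared litter is not stated. With a replicate block 9194 probe sets, 13 member probe sets and 71 list genes passed, against 8313, 13 and 64 without it. Signal over background could not be judged from the ratios, and no filter on low signal could be made.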
